A study of Mus musculus with 8 samples.

Results

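The 84 mouse genes described here are the matrix metalloproteinases (MMPs), the ADAM and ADAMTS metalloproteinases, the ADAMTS-like proteins and the tissue inhibitors of metalloproteinases (TIMPs). They were taken by symbol, from Mmp, Adam, Adamts, Adamtsl or Timp followed by a number and at most 1 letter, out of 55335 gene identifiers in the deposited table. Of the 84, 75 are protease-family genes, 5 are ADAMTS-like genes and 4 are TIMPs. MC3T3-E1, a pre-osteoblast line established from mouse calvaria, was cultured for 3 days before its RNA was sequenced, either with TABS (Trio-Active bone scaffold, in the submitters' words, 4 libraries) or with HA (hydroxyapatite doped with magnesium, 4 libraries). No library without a scaffold was analysed here, so a rise or fall in TABS is relative to HA, and the sources used here do not give the composition of TABS. The library names carry H for TABS and L for HA, letters that do not match the group names, and the scaffold behind a library cannot be checked from any gene. The labels do not say whether replicates are separate cultures. The p-values therefore set the difference between scaffolds against no more than the spread among these libraries, and that spread may be technical.

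MMPs are secreted or membrane-bound zinc proteases that cut collagens and other matrix proteins. ADAMs are membrane proteins, many of which release the outer parts of other membrane proteins, and ADAMTS enzymes are secreted and cut proteoglycans or trim procollagens. ADAMTS-like proteins share the binding modules of ADAMTS enzymes but have no catalytic domain, and several bind fibrillin microfibrils. TIMPs block the active site of MMPs and of some ADAM and ADAMTS enzymes, but not of all, at a ratio of 1 to 1. TIMP2 also has a part in activation, since a complex of MMP14 with TIMP2 holds pro-MMP2 for cleavage at the cell surface. In bone, osteoblasts make MMP13, the main collagenase for fibrillar collagen in the mouse, and MMP14, and the promoter of Mmp13 is a known target of Runx2 and AP-1 factors.

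Levels are in FPKM, a unit per transcript length and library size, so genes can be ranked by it. Each library had 11187 to 11357 genes at 1 FPKM or more. The steps between low values, read as single fragments, give about 18.3 to 24.9 fragments per FPKM and kilobase in TABS libraries and 20.8 to 26.0 in HA libraries, although most values did not come out whole. All 9 osteoblast markers listed for the check of the line passed the expression filter, Alpl through HA alone. Of these 9, Sp7, Col1a1, Alpl, Ibsp and Postn fell in TABS, Spp1 rose, and Runx2, Col1a2 and Bglap did not pass the test. Ibsp averaged 14.5 ± 1.32 FPKM in TABS and 50.3 ± 3.58 FPKM in HA (SD, n = 4, log2 fold change -1.73, limma adjusted p = 1.51e-05), and Spp1 averaged 3300 ± 239 FPKM in TABS and 2430 ± 259 FPKM in HA (0.45, limma adjusted p = 0.0207). Of 8 macrophage and osteoclast markers, Ctsk (at most 124 FPKM) and Mmp9 reached 1 FPKM, while Cd68 reached at most 0.346 FPKM, Csf1r 0.136 and Oscar 0.118, and Ptprc, Adgre1 and Acp5 stayed below 0.1. The summed level of these 8 ran from 114 to 121 FPKM in TABS and from 108 to 127 in HA. Almost all of it was Ctsk, which averaged 114 FPKM in each group. Of 4 endothelial markers, Pecam1 was the highest at no more than 0.294 FPKM, and Kdr was listed at 0. Of 5 cartilage markers, Acan stayed below 0.01 FPKM and Col10a1 and Comp reached at most 0.382 and 0.626 FPKM. Sox9, however, averaged 36.5 FPKM in TABS and 34.8 FPKM in HA, and Col2a1 averaged 5.49 and 4.32 FPKM. Of 3 adipocyte markers, Fabp4 reached 3.38 FPKM, while Adipoq and Plin1 stayed below 0.1.

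Of the 84 genes, 28 had at least 1 FPKM in at least 4 of the 8 libraries and were tested. They comprise 8 MMP, 7 ADAM, 7 ADAMTS, 3 ADAMTS-like and 3 TIMP genes. Another 21 were listed at 0 in every library (13 Adam, 5 Mmp and 3 Adamts genes), 29 were above 0 but under 0.5 FPKM throughout, and 6 reached 0.5 FPKM in some library without passing the filter. Timp2 had the highest level of all members, at rank 24 among all genes by mean FPKM, and Mmp2 followed at rank 53. Adamts1, Mmp13 and Mmp14 came next, with at least 97.99 FPKM in every library, and the ranges over all libraries of these 5 genes did not overlap except for those of Adamts1 (175 to 262 FPKM) and Mmp13 (131 to 184). Timp3 and Timp1 (54.4 to 71.4 and 56.4 to 70.8 FPKM) lay below them and overlapped each other. Adam9, Adamtsl4, Mmp19, Adam15, Mmp11 and Adam10 averaged 18.8 to 37.5 FPKM, and the other 15 tested members averaged 1.06 to 12.96 FPKM. All members that reached 0.5 FPKM are annotated as protein-coding. Exons of Timp3, Mmp19, Adam15, Mmp11, Adamts4, Mmp28, Adam8 and Adam17 overlap those of another gene, and reads of such genes cannot be told apart where the strand setting is unknown.

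**Figure D1:**
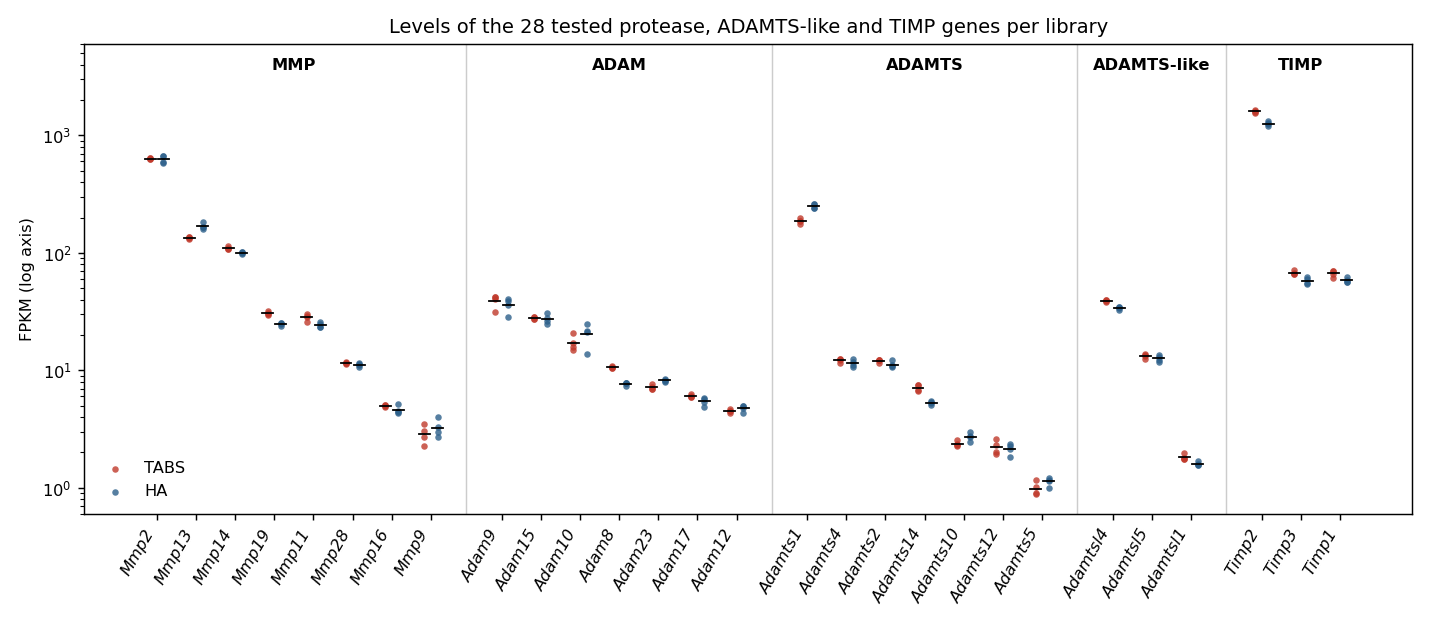
FPKM on a log axis for the 28 tested members, by family and in order of mean level, with 1 point per library (TABS red, HA blue, 4 each) and a bar at each group's mean. Timp2 and Mmp2 stand highest, and Adamts1 and Mmp13 are lower in every TABS library than in any HA library.

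TABS and HA were compared with limma on log2(FPKM + 1) over all 11280 tested genes, and a gene was called at a Benjamini-Hochberg adjusted p under 0.05. Of the 28 tested members, 6 rose and 2 fell in TABS, which is 28.6%, against 7.38% of all tested genes called (4.49% higher and 2.90% lower). The 6 were Timp2, Timp3, Adam8, Adamts14, Mmp19 and Adamtsl4, and the 2 were Adamts1 and Mmp13. The median log2 fold change of the 28 was 0.09, against 0.01 over all tested genes. The tested members had a median level of 12.4 FPKM, against 6.97 for all tested genes, and 8.79% of all tested genes with a mean of at least 5 FPKM were called. All 8 calls lay among the 21 members at that level. In 12 of the 28 members the libraries of the 2 groups did not overlap, which compares with 18.0% of all tested genes. TABS lay above in 9 of them and below in 3, against 10.8% and 7.15% of all tested genes. The 4 of these 12 that were not called were Mmp14, Adam17 and Adamtsl1 (above) and Adam23 (below). RNA came from whole cultures, in which fewer cells that express a gene and less RNA per cell cannot be told apart.

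**Figure D2:**
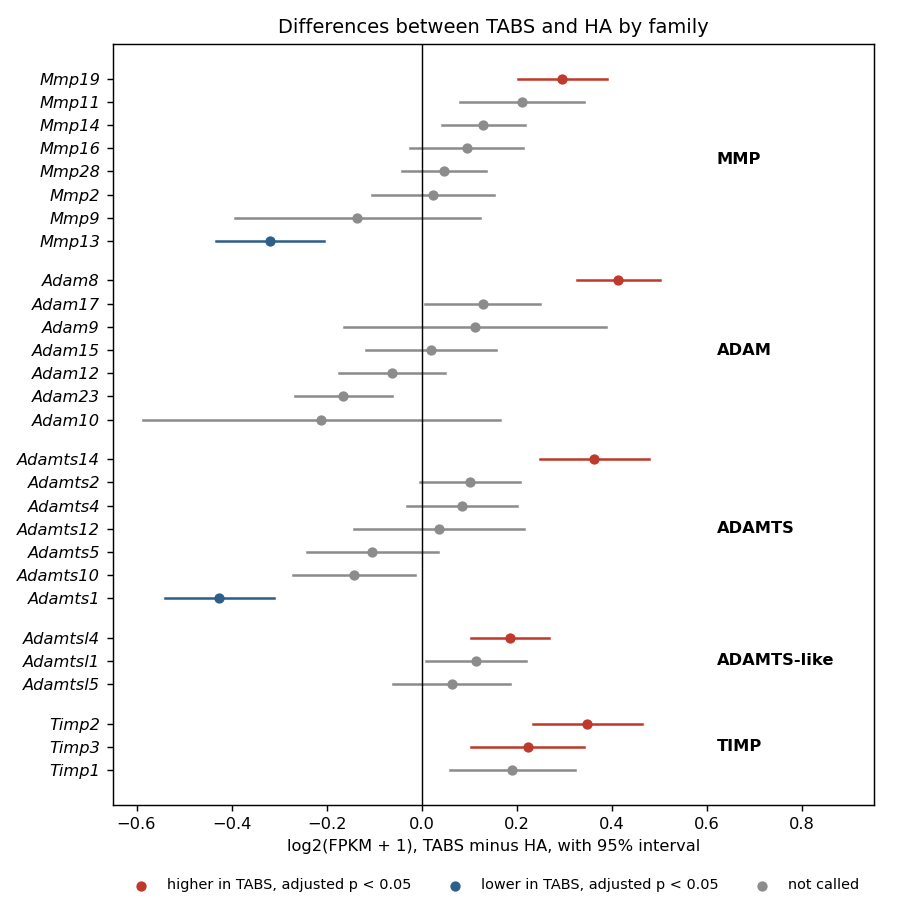
Difference in log2(FPKM + 1), TABS minus HA, with its 95% interval for the 28 tested members, by family. Red marks the 6 members called higher, blue the 2 called lower and grey the 20 not called. The 3 TIMP genes all have intervals above 0, while each protease family holds values on both sides of 0.

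To show what lies upstream of the members that moved, the 250 bases before the RefSeq start of Mmp13 and Adamts1, the 2 members that fell, and of Adam8, the riser with the smallest adjusted p, are given from RefSeq's GRCm38.p6 annotation, each 5′ to 3′ on the strand of its gene. Capitals mark 4 motifs searched on both strands, namely AP-1 (TGANTCA), RUNX (TGTGGT or ACCACA), the TATA box (TATAAA or TTTATA) and the GC box (GGGCGG or CCGCCC), none of which overlap here. Mmp13 is shown from chr9:7272264-7272513 (plus strand), Adamts1 from chr16:85803114-85803363 (minus strand) and Adam8 from chr7:139992563-139992812 (minus strand).
Mmp13: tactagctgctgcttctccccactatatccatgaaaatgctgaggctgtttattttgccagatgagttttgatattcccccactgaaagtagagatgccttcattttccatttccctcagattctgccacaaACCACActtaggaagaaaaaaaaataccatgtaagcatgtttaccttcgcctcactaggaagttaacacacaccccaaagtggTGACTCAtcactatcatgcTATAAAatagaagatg
Adamts1: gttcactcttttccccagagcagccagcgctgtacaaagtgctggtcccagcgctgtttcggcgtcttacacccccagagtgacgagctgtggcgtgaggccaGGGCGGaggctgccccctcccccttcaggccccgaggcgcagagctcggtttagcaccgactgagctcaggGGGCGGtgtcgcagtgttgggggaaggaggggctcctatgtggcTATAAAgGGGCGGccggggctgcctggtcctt
Adam8: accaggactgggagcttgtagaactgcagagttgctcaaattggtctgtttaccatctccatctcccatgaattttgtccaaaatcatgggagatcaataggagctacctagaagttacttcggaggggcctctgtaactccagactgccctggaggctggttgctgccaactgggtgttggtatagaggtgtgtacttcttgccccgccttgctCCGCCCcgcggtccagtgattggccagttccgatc

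The Mmp13 window held an AP-1 motif starting 35 bases before the start, a RUNX motif at 118 and a TATA box at 16. The Adamts1 window held a TATA box starting 32 bases before the start and 3 GC boxes, and the Adam8 window held 1 GC box. Of 18 tested members with a promoter in the table, the AP-1 motif was found in 1 (5.56%, against 4.20% of the 10541 promoters of all tested genes) and the RUNX motif in 3 (16.7% against 10.3%). A GC box was found in 15 (83.3% against 60.1%) and a TATA box in 2 (11.1% against 6.06%). Over all 32851 promoters of the table the shares were 6.75% for AP-1, 32.7% for the GC box and 12.4% for the TATA box, and 4614 promoters held the RUNX motif. A match describes letters in this window and not a bound site.

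Of the 3 tested inhibitors, Timp2 and Timp3 rose in TABS. Timp2 had 1646, 1589, 1626 and 1548 FPKM in the 4 TABS libraries, against 1207, 1316, 1266 and 1246 FPKM in the 4 HA libraries. Every TABS library lay above every HA library, and the group means were 1602 ± 42.8 and 1259 ± 45.3 FPKM in TABS and HA (SD, n = 4 each, log2 fold change 0.35 ± 0.05 SE, limma adjusted p = 0.00472). Timp2 lies on chromosome 11 of GRCm38 from 118301069 to 118355740. With no filter on low FPKM its adjusted p by limma was 0.0618. Timp3, the TIMP that binds to the matrix and also blocks ADAM17 and the aggrecanases, had 65.6, 66.1, 71.4 and 68.0 FPKM in TABS, against 54.4, 55.8, 59.4 and 62.4 FPKM in HA. The groups did not overlap, but the gap between them was smaller than the SD of HA (67.8 ± 2.63 and 58.0 ± 3.62 FPKM in TABS and HA, SD, n = 4, log2 fold change 0.22 ± 0.05, limma adjusted p = 0.0378). The call on Timp3 was lost on leaving out any library but HA 4 (limma adjusted p between 0.0648 and 0.101), without the low-FPKM filter (0.0788) and with quantile normalization (0.0602). Timp3 lies on chromosome 10 from 86300372 to 86349506, and its exons overlap those of Syn3 on the opposite strand.

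Timp1, a secreted inhibitor that acts weakly on MMP14, was not called. It had 66.0, 60.9, 70.1 and 70.8 FPKM in TABS, against 62.7, 58.3, 56.6 and 56.4 FPKM in HA, and the groups overlapped at TABS 2 and HA 1. The difference was 0.19 on the log2 scale (95% interval 0.06 to 0.32, limma adjusted p = 0.0834), and limma adjusted p ranged from 0.0278 to 0.198 over the 19 alternative settings, passing with values rescaled to TPM or corrected for GC and length. Timp4, named here after its values were seen, was at 0.019 to 0.028 FPKM in TABS and 0.073 to 0.115 FPKM in HA, and was not tested; its exons overlap those of Syn2. It was called lower only where no filter on low FPKM was applied (limma adjusted p = 0.0178). Of the summed TIMP level, Timp2 made up 91.8% to 92.6% in TABS and 91.2% to 92.0% in HA, so the summed values below are mostly those of 1 gene.

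Among the MMPs, the collagenase Mmp13 fell. It had 137, 137, 133 and 131 FPKM in TABS, against 165, 160, 165 and 184 FPKM in HA. Every TABS library lay below every HA library, and the means were 135 ± 3.02 and 168 ± 10.5 FPKM in TABS and HA (SD, n = 4, log2 fold change -0.32 ± 0.05, limma adjusted p = 0.00674). Mmp13 lies on chromosome 9 from 7272514 to 7283331, at the edge of a cluster of 10 MMP genes within 427 kilobases. The other 9 genes of that cluster, singled out here after their values were seen, did not pass 0.136 FPKM in any library, and Mmp1a, Mmp7, Mmp10, Mmp20 and Mmp27 were listed at 0. Of the 9 osteoblast markers, Sp7, Col1a1, Alpl, Ibsp and Postn also fell. Spp1 rose (0.45, limma adjusted p = 0.0207), and Runx2, Col1a2 and Bglap did not pass the test. Sp7, an osteoblast transcription factor, averaged 10.8 ± 0.18 FPKM in TABS and 15.6 ± 0.85 FPKM in HA (SD, n = 4, -0.49, limma adjusted p = 0.00071). Runx2 averaged 17.3 ± 0.46 FPKM in TABS and 18.4 ± 0.70 FPKM in HA (-0.08, limma adjusted p = 0.245). The part of these markers, or of the motifs upstream of Mmp13, in its fall was not tested. Of the collagenase genes, Mmp8 reached at most 0.0499 FPKM and Mmp1b at most 0.0179 FPKM.

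Mmp19, a secreted MMP outside the main subgroups, rose. It had 30.1, 32.3, 30.9 and 29.7 FPKM in TABS, against 23.8, 25.4, 25.02 and 25.2 FPKM in HA. The groups did not overlap (30.7 ± 1.16 and 24.8 ± 0.74 FPKM in TABS and HA, SD, n = 4, log2 fold change 0.30 ± 0.04, limma adjusted p = 0.00411). The gene lies on chromosome 10 from 128790910 to 128800824, and its exons overlap those of Tmem198b and Gm47093 on the opposite strand. The call held under all 19 alternative settings, with limma adjusted p at most 0.0353.

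The gelatinase and membrane-type MMP genes were not called. Mmp2, the gelatinase that MMP14 and TIMP2 activate, had 624 to 639 FPKM in TABS and 577 to 662 FPKM in HA, with the TABS libraries inside the HA range (log2 fold change 0.02, 95% interval -0.10 to 0.15, limma adjusted p = 0.843). Mmp9, the other gelatinase and an enzyme abundant in osteoclasts, had 2.27 to 3.49 FPKM in TABS and 2.72 to 4.01 FPKM in HA (-0.14, interval -0.39 to 0.12). Mmp14 had 108, 110, 115 and 108 FPKM in TABS, against 97.99, 103, 102 and 99.98 FPKM in HA. All TABS libraries lay above all HA libraries for Mmp14, although it missed the threshold (0.13, interval 0.04 to 0.22, limma adjusted p = 0.0773), and limma adjusted p ranged from 0.0312 to 0.311 over the alternatives. It passed after rescaling to TPM, which moved the median of all tested genes to 0.04, and after quantile normalization, while the GC and length correction lowered its log2 fold change to 0.08 (limma adjusted p = 0.261). Mmp16, another membrane-type gene, differed by 0.09 (interval -0.02 to 0.21, limma adjusted p = 0.31) and passed only after the GC and length correction (0.16, limma adjusted p between 0.0239 and 0.491 over the alternatives). Mmp11, known as stromelysin-3, had 28.3 ± 1.94 FPKM in TABS and 24.3 ± 1.18 FPKM in HA (SD, n = 4, 0.21, interval 0.08 to 0.34, limma adjusted p = 0.0591), and passed only without TABS 4 (0.0328) and after rescaling to TPM (0.0288), with limma adjusted p up to 0.151 otherwise. Mmp28, or epilysin, had 11.4 to 11.7 FPKM in TABS and 10.7 to 11.7 FPKM in HA (0.05, interval -0.04 to 0.14).

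Of the ADAM genes 1 was called. Adam8, a membrane sheddase best known from myeloid cells, had 10.5, 10.4, 10.96 and 10.7 FPKM in TABS, against 7.78, 7.43, 7.87 and 7.82 FPKM in HA. It had the smallest adjusted p of all 28 tested members, and the groups stood clear of each other (10.6 ± 0.25 and 7.72 ± 0.20 FPKM in TABS and HA, SD, n = 4, log2 fold change 0.41 ± 0.04, limma adjusted p = 0.00071). The mean in TABS was 1.37 times that in HA. The gene lies on chromosome 7 from 139978932 to 139992562. Of the 8 macrophage and osteoclast markers, 2 reached 1 FPKM, namely Ctsk (114 ± 3.29 FPKM in TABS and 114 ± 8.14 FPKM in HA) and Mmp9 (2.88 ± 0.51 FPKM in TABS and 3.26 ± 0.56 FPKM in HA, SD, n = 4), and neither was called. Cd68 averaged 0.27 FPKM in TABS and 0.208 FPKM in HA, and Ptprc and Adgre1, which define blood cells and macrophages, reached at most 0.0104 and 0.0304 FPKM. The part of such cells in the rise of Adam8 was not tested. The call on Adam8 held under all 19 alternative settings (limma adjusted p at most 0.0191).

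The other 6 tested ADAM genes did not pass. Adam10 encodes the main sheddase of Notch, and Adam17 that of TNF and several EGF-family ligands. Adam10 varied widely within groups, with 14.98, 17.2, 20.96 and 15.9 FPKM in TABS and 13.8, 21.4, 21.7 and 24.8 FPKM in HA. Its interval, -0.59 to 0.16 on the log2 scale, was the widest of the tested members. Adam17 had 5.90 to 6.31 FPKM in TABS and 4.91 to 5.85 FPKM in HA, groups that did not overlap by a narrow margin (0.13, interval 0.01 to 0.25, limma adjusted p = 0.186), and it passed only after the GC and length correction (0.0484, against up to 0.329 otherwise). Adam23, which lacks the catalytic zinc site and serves as a receptor for LGI proteins in the nervous system, had 6.91 to 7.70 FPKM in TABS and 7.96 to 8.46 FPKM in HA (-0.17, interval -0.27 to -0.06, limma adjusted p = 0.0595). It passed only with quantile normalization (0.0475) and after the GC and length correction (0.0385), with limma adjusted p up to 0.18 otherwise. Adam9, Adam15 and Adam12 (also called meltrin gamma, metargidin and meltrin alpha) had overlapping groups. Their differences were 0.11 (interval -0.16 to 0.39), 0.02 (-0.12 to 0.16) and -0.06 (-0.17 to 0.05), and the value of Adam9 in TABS 1 stood apart at 31.4 FPKM, against 40.5 to 41.9 FPKM in the other TABS libraries.

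In the ADAMTS family, the proteoglycanase Adamts1 fell and the procollagen trimming enzyme Adamts14 rose. Adamts1, which cuts versican and aggrecan, had 175, 186, 196 and 187 FPKM in TABS, against 241, 262, 240 and 258 FPKM in HA. No TABS library reached the lowest HA library (186 ± 8.58 and 250 ± 11.2 FPKM in TABS and HA, SD, n = 4, log2 fold change -0.43 ± 0.05, limma adjusted p = 0.00192). Adamts1 made up 82.0% to 83.9% of the summed ADAMTS level in TABS and 87.3% to 88.3% in HA. It lies on chromosome 16 from 85793827 to 85803113, and its call held under all 19 alternative settings (limma adjusted p at most 0.0237). Adamts5, its neighbour on that chromosome from 85856173 to 85901828 and an aggrecanase, stood near the filter at 0.88 to 1.155 FPKM in TABS and 1.004 to 1.22 FPKM in HA (-0.10, interval -0.24 to 0.03). Adamts4, the other aggrecanase tested, had 11.6 to 12.6 FPKM in TABS and 10.7 to 12.4 FPKM in HA (0.08, interval -0.03 to 0.20).

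Adamts14 removes the amino-terminal propeptide of procollagens, as do Adamts2 and Adamts3. It had 6.69, 7.51, 7.54 and 6.74 FPKM in TABS, against 5.41, 5.44, 5.28 and 5.11 FPKM in HA. Each of the 4 TABS libraries lay above all 4 HA libraries (7.12 ± 0.47 and 5.31 ± 0.15 FPKM in TABS and HA, SD, n = 4, log2 fold change 0.36 ± 0.05, limma adjusted p = 0.00406). Adamts14 lies on chromosome 10 from 61197112 to 61273438. Adamts2 was the more abundant of the pair, at 12.1 ± 0.29 FPKM in TABS and 11.2 ± 0.65 FPKM in HA (SD, n = 4, 0.10, interval -0.0048 to 0.2072, limma adjusted p = 0.226), and Adamts3 was listed at 0 in every library. Adamts14 stood at 0.544 to 0.617 of the level of Adamts2 in TABS and at 0.444 to 0.492 in HA. Adamts10, which binds fibrillin, differed by -0.14 (interval -0.27 to -0.02, limma adjusted p = 0.163) and passed only after the GC and length correction (-0.22, limma adjusted p between 0.024 and 0.316 over the alternatives), and Adamts12 differed by 0.04 (-0.14 to 0.21).

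Of the 3 tested ADAMTS-like genes, Adamtsl4 rose. In human and mouse eyes it is known for the anchoring of fibrillin microfibrils. It had 39.5, 38.9, 38.0 and 39.5 FPKM in TABS, against 34.8, 34.7, 32.9 and 34.2 FPKM in HA, with no overlap (log2 fold change 0.18 ± 0.04, limma adjusted p = 0.0182). It lies on chromosome 3 from 95676201 to 95687917. The call was lost without TABS 1, TABS 2, TABS 4 or HA 3 (limma adjusted p up to 0.0611) and after the GC and length correction (0.089). Adamtsl1 had 1.74 to 1.97 FPKM in TABS and 1.56 to 1.68 FPKM in HA (0.11, interval 0.01 to 0.22, limma adjusted p = 0.176), and Adamtsl5 differed by 0.06 (-0.06 to 0.19).

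Members under the filter stood at low levels and have no test. Adamts7, a protease of cartilage oligomeric matrix protein, had 0.575, 0.797, 0.736 and 0.648 FPKM in TABS, against 0.314, 0.478, 0.306 and 0.257 FPKM in HA, and Adamtsl3 had 0.389 to 0.537 FPKM in TABS against 0.649 to 0.874 FPKM in HA. The groups did not overlap in either gene, with TABS above for Adamts7 and below for Adamtsl3. Where no filter was applied, Adamts7 was called (log2 fold change 0.34, limma adjusted p = 0.0472). Adam19 had 0.956 to 1.23 FPKM in TABS and 0.886 to 0.989 FPKM in HA, and overlapped. Adam5, Adam11 and Adam1a stayed between 0.076 and 0.577 FPKM in all libraries, with overlapping groups. Exons of Adamts7, Adam19 and Adam1a overlap those of other genes.

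Set against each other, the families differed between scaffolds in different ways. The summed TIMP level was 1687 to 1777 FPKM in TABS and 1324 to 1430 FPKM in HA, with no overlap. The summed MMP level was 951 to 962 FPKM in TABS and 928 to 994 FPKM in HA, with the TABS libraries inside the HA range. Mmp2 made up 65.6% to 67.0% of that sum in TABS and 62.1% to 66.6% in HA, and without Mmp2 the sum was 315 to 328 FPKM in TABS and 332 to 352 FPKM in HA, with TABS below. The summed ADAM level overlapped. The summed ADAMTS level was 214 to 235 FPKM in TABS and 274 to 297 FPKM in HA, mostly through Adamts1. The ratio of summed TIMP to summed MMP, which does not depend on the scaling of a library, was 1.85, 1.78, 1.86 and 1.77 in TABS, against 1.33, 1.44, 1.48 and 1.47 in HA. The mean ratio in TABS was 1.27 times that in HA. All protease-family genes together summed to 1282 to 1308 FPKM in TABS and 1311 to 1408 FPKM in HA, TABS lying below by a narrow margin, and summed TIMP over this sum was 1.31 to 1.39 in TABS and 0.961 to 1.05 in HA. With Timp2 left out the ratio to summed MMP was 0.132 to 0.149 in TABS and 0.115 to 0.128 in HA, and the groups still did not overlap. These sums and ratios were formed with earlier results known and carry no test. They compare RNA levels, not amounts of active protease or free inhibitor, and the protease-family sum includes Adam23, which lacks the catalytic site.

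Pairs known to act on each other gave unequal ratios. Timp2 over Mmp2 was 2.58, 2.51, 2.61 and 2.42 in TABS, against 1.83, 1.99, 2.11 and 2.16 in HA, and Timp2 over Mmp14 was 14.1 to 15.3 in TABS against 12.3 to 12.8 in HA. Neither pair overlapped between groups. Timp2 was called and Mmp2 and Mmp14 were not, so both ratios restate mainly the rise of Timp2. Timp3 over Adamts1 was 0.356 to 0.374 in TABS and 0.213 to 0.248 in HA, the mean in TABS being 1.57 times that in HA. As Timp3 was called higher and Adamts1 lower, this ratio restates those calls and adds no separate result. By contrast Timp3 over Adam17 (10.5 to 12.1 in TABS, 9.84 to 11.1 in HA) and Timp3 over Adamts4 (5.27 to 5.88 in TABS, 4.50 to 5.54 in HA) overlapped. So did Timp3 over Adam10 (3.41 to 4.38 in TABS, 2.52 to 3.955 in HA) and Timp1 over Mmp9 (20.3 to 26.8 in TABS, 14.5 to 20.8 in HA). Timp1 over Mmp13 (0.444 to 0.539 in TABS, 0.307 to 0.380 in HA) did not overlap. By gene, 2 of 3 tested TIMPs rose and 1 did not pass, and of 22 tested protease-family genes 3 rose, 2 fell and 17 did not pass, where 4.49% of all tested genes were called higher and 2.90% lower. The median log2 fold change was 0.22 for the TIMPs and 0.04 for the proteases. The difference between the 2 classes was not tested.

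**Figure D3:**
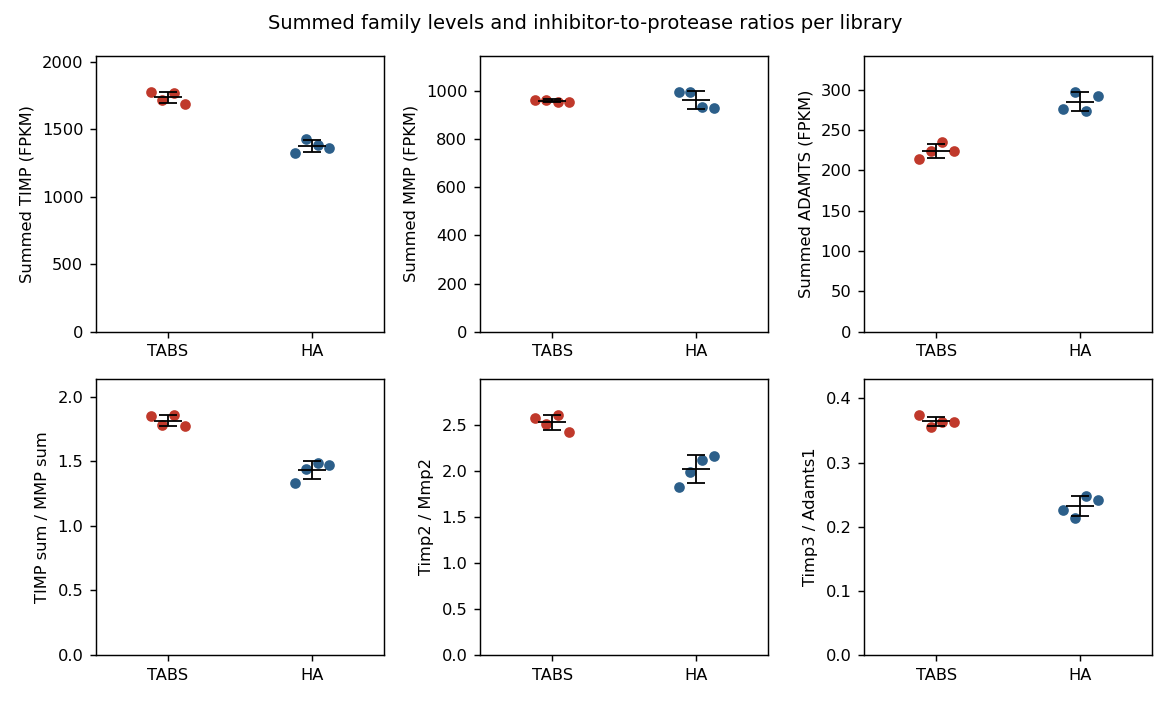
Summed FPKM of the TIMP, MMP and ADAMTS genes (top) and inhibitor-to-protease ratios (bottom) per library, with axes from 0. Points are libraries (TABS left, HA right, 4 each), and the black bar and whiskers give the mean and SD. The summed TIMP level, the ratio of summed TIMP to summed MMP, Timp2 over Mmp2 and Timp3 over Adamts1 are higher in every TABS library, summed ADAMTS is lower, and summed MMP overlaps. Each ratio follows from the levels of its genes and is no separate result.

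Genes that act with these proteases were described from 4 lists of 86 genes, of which 51 were tested, and 5 rose and 4 fell, where 7.38% of all tested genes were called. The counts of 1 among 11 genes of MMP activation and 1 among 13 ADAM substrates lie near that share and say nothing about those lists. Among 11 tested genes of MMP activation and surface control, 1 rose, Lrp1, an endocytic receptor that clears MMP and TIMP complexes. It had 156, 149, 159 and 147 FPKM in TABS, against 118, 116, 99.4 and 108 FPKM in HA (log2 fold change 0.47 ± 0.06, limma adjusted p = 0.00257). Of 12 tested genes of ADAM maturation and trafficking, 2 rose and none fell. They were Pacsin2, an endocytic adaptor (20.8 ± 0.28 FPKM in TABS and 17.7 ± 0.98 FPKM in HA, SD, n = 4, 0.22, limma adjusted p = 0.0198), and Rhbdf2, which encodes the ADAM17 partner iRhom2 (2.42 ± 0.18 and 1.90 ± 0.10 FPKM in TABS and HA, SD, n = 4, 0.24, limma adjusted p = 0.0332). Of 13 tested ADAM substrates 1 rose, App, the amyloid precursor protein gene (34.1 ± 0.73 FPKM in TABS and 29.9 ± 0.34 FPKM in HA, SD, n = 4, 0.19, limma adjusted p = 0.014).

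Among 17 tested genes listed as ADAMTS substrates and partners, 4 fell and 1 rose. The list includes Pcolce2 through procollagen alone, since Adamts2, Adamts3 and Adamts14 trim the amino-terminal end. Pcolce2, an enhancer of procollagen carboxy-terminal trimming, had 4.69, 4.74, 4.84 and 4.82 FPKM in TABS, against 9.67, 8.10, 8.34 and 8.61 FPKM in HA (log2 fold change -0.74 ± 0.05, limma adjusted p = 0.00034). The fibrillar collagen genes Col3a1 (-0.66) and Col1a1 (-0.39) and the proteoglycan gene Dcn (-0.28) also fell, and the cartilage collagen gene Col2a1 rose (0.29) at 5.49 ± 0.21 FPKM in TABS and 4.32 ± 0.52 FPKM in HA (SD, n = 4, limma adjusted p = 0.0393). Acan, the aggrecan gene, stayed below 0.01 FPKM. Only Lrp1, Col3a1 and Pcolce2 of the 9 kept their calls whichever library was left out. App lost its call without TABS 2, Dcn without TABS 1, 3 or 4 or HA 1 or 2, and Col1a1 and Pacsin2 without TABS 1, 2, 3 or 4 or HA 2. Col2a1 passed only without HA 2, and Rhbdf2 only without TABS 2 or HA 4. The medians of the 4 lists were 0.10, 0.13, -0.0036 and -0.10 in the order given here, against 0.01 over all tested genes.

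**Figure D4:**
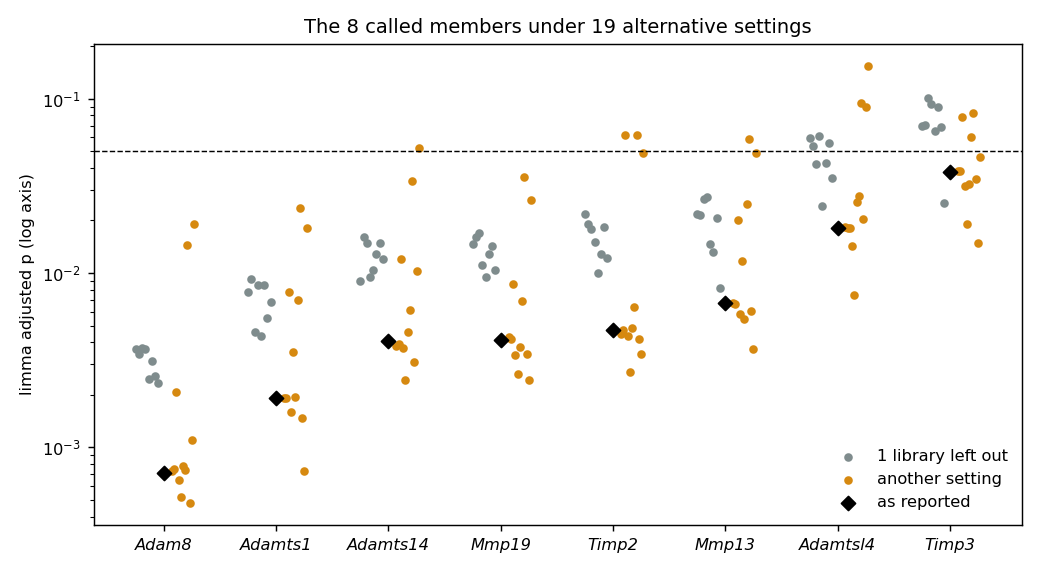
limma adjusted p (log axis) for the 8 called members as reported (black diamonds), with 1 of 8 libraries left out (grey) and under 11 other settings (orange), with the threshold dashed. Adam8, Adamts1 and Mmp19 stay under the threshold in all 19 alternatives, whereas Timp3 lies above it in 10 and Adamtsl4 in 7.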

How the data were processed

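The authors deposited 1 FPKM value per gene and library in a table of 8 libraries. The submitters' processing notes name the build GRCm38 and the tools fastp, STAR and DESeq2, with no versions. What computed the FPKM values, with which annotation, filters and strand setting, is not stated in the labels or the file. Each column name was matched to the library name in 1 sample's labels.

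Of 55335 identifiers, 55154 had a symbol in GENCODE M21 (GRCm38), which also gave coordinates, exon overlaps, transcript length and GC content. Genes with at least 1 FPKM in at least 4 libraries (11280) were tested two-sided with limma 3.58.1 (R 4.3.3, empirical Bayes with a mean-variance trend) after adding a pseudocount of 1 and taking log2, Benjamini-Hochberg adjusted over all tested genes, threshold 0.05. A log2 fold change is the mean log2(FPKM + 1) of TABS minus that of HA, so low genes appear to change less than they do. Intervals are 95% intervals of the moderated test. The fit was tested on simulated data with planted differences larger than those of the called members. It therefore does not show how well differences of their size are found. Low FPKM values were whole multiples of the implied step, within 0.02 of it, in only 16.9% to 26.9% of cases per library, so reads were not recovered, no count test was run and no interval that needs counts is given.

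Members, lists and tests were chosen with earlier results of these data known. Every member that passed the filter is named, as are members that reached 0.5 FPKM and list genes that passed the test. Timp4, Adamts3, Acan, the Mmp13 cluster and the cell markers are named besides. The alternatives were 2 pseudocounts, 2 filters, 3 scalings, robust variances, a GC and length correction (loess, span 0.5), the replicate number as a block with and without that correction, and each library left out. Promoters were found for 53 of 84 members.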

Additional observations from a re-analysis of the deposited data

Results flagged for a closer look

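In 68 groups of 4 libraries (34 members in each scaffold), 2 held a library that stood apart from the other 3 by more than a Dixon test allows, where chance flags about 1 in 20 groups. Adam9 had 31.39 FPKM in TABS 1, against 40.51 to 41.91 FPKM in the other TABS libraries. Adam1a had 0.5275 FPKM in HA 4, against 0.09236 to 0.1284 FPKM in the other HA libraries, and its exons overlap those of Mapkapk5, Tmem116 and Gm42878. Adam9 was not called, and Adam1a did not pass the filter and was not tested.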

How the results depend on the processing

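With 19 alternative settings, Adam8, Adamts1 and Mmp19 passed in all, Adamts14 and Mmp13 in 18, Timp2 in 17, Adamtsl4 in 12 and Timp3 in 9. The GC and length correction took the log2 fold change of Adamts1 from -0.43 to -0.48 and made those of the other called members smaller. Mmp13 went from -0.32 to -0.23, Adamts14 from 0.36 to 0.26, Timp2 from 0.35 to 0.29 and Adamtsl4 from 0.18 to 0.13. The called proteases numbered 5 and became 9 with the GC and length correction (Adam17, Mmp16, Adam23 and Adamts10 added). They numbered 7 in TPM, 7 with quantile normalization, 6 with no filter and 4 with the replicate block, with or without the correction. Called TIMPs numbered 2, against 3 in TPM and 3 with the GC and length correction. They numbered 1 with no filter (Timp4 alone), 1 with quantile normalization, 0 with the replicate block and 2 with block and correction. With a library left out they numbered 1 to 2. The called ADAMTS-like gene (1) became 0 with the replicate block, 0 with the GC and length correction and 0 with both, and 0 to 1 with a library left out. Called list genes numbered 9, against 14 in TPM, 3 with the replicate block and 4 with block and correction, and 4 to 9 with a library left out. Of all tested genes 833 were called, against 542 with no filter, 230 with the replicate block, 337 with block and correction, and 415 to 718 with a library left out. Rescaling to TPM turned the 506 higher and 327 lower calls into 915 and 239. Same-numbered libraries were no more alike than others (correlations of 0.105, 0.0496, -0.104 and -0.0576, against -0.164 to 0.177 between unlike numbers). With so few libraries and no word in the labels, this cannot exclude a shared culture or batch. With the block the limma adjusted p was 0.0615 for Timp2, 0.0828 for Timp3, 0.0589 for Mmp13 and 0.0943 for Adamtsl4, and with block and correction 0.0521 for Adamts14 and 0.154 for Adamtsl4.

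Signs turned in genes that were not called. With the GC and length correction, with or without the block, log2 fold changes were -0.0155 for Mmp2, -0.0369 for Adam15, -0.0036 for Adamts4 and -0.018 for Mmp28. With a library left out they spanned -0.0138 to 0.0521 for Mmp2, -0.0252 to 0.07 for Adam15 and -0.0193 to 0.0766 for Adamts12, which was also negative without HA 2 (-0.0133). The cause was not tested for any of these. Over the 28 tested members and all settings, 481 values kept direction and side of the threshold, 21 no longer passed, 11 newly passed and 12 changed sign. Depth is unknown, so counting error is not separated from other spread.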
